A study of Homo sapiens with 21 samples.

Results

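The EGF receptor group described here comprises 10 of the 23368 features of the mRNA count table of HK-2 cells. The members were chosen by symbol: the receptors *EGFR*, *ERBB2* and *ERBB3*, the ligands *AREG*, *EREG*, *HBEGF*, *TGFA* and *BTC*, and the feedback transcripts *ERRFI1* and *PHLDA1*. HK-2 cells derive from the proximal tubule of a human kidney and were made immortal. The series holds 21 samples and asked how the immunosuppressant cyclosporine A (CsA), which can injure the kidney, alters mRNAs and miRNAs in this line. For mRNA and for miRNA, 4 libraries came from cells given 5 µg/mL CsA for 48 h and 4 from cells given vehicle (0.1% ethanol) for 48 h; the labels do not give the ethanol content of the CsA cultures. Binding by Argonaute, the protein that carries miRNAs to their targets, was mapped by PAR-CLIP, which crosslinks 4-thiouridine-labelled RNA to protein: 2 AGO2 libraries after 24 h of CsA, 2 after 24 h of vehicle, and 1 library with an antibody to all Argonautes and no treatment label. All cells grew in keratinocyte serum-free medium with added EGF (5 ng/mL) and pituitary extract (0.05 mg/mL), so a ligand of EGFR was supplied to CsA-treated and vehicle cells alike.

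EGFR, ERBB2 and ERBB3 are membrane receptors that pair when a ligand binds and then signal through RAS-ERK and PI3K-AKT. ERBB2 has no known ligand of its own and acts as a partner, and ERBB3 has a weak kinase and couples well to PI3K. The ligands are made as membrane proteins and released by metalloproteases, ERRFI1 binds active EGFR and inhibits its kinase, and in the kidney tubule this system is known for its part in epithelial repair.

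Total counts per mRNA library ranged over 3965431 to 5001669 with CsA and 4289120 to 7041604 with vehicle. Nothing in the labels ties the 4 libraries of a group to separate cultures, so each p-value measures a spread between libraries that may be technical. Levels are CPM (a library's counts scaled to a common total, after TMM) and are not divided by transcript length, so they are compared between libraries but not between genes. Of 18 kidney epithelial markers, 11 passed the low-count filter and 5 were higher, 5 lower and 1 not passed with CsA, and their summed level was 2379.8 to 2501.6 CPM with CsA and 2256.8 to 2329.6 CPM with vehicle. The proximal tubule transporter *SLC22A6* was at 0 in all 8 libraries, and *LRP2*, *CUBN*, *AQP1* and *SLC34A1* each averaged under 1 CPM, while the kidney transcription factor *PAX8* averaged 953.6 ± 32.0 CPM with CsA and 832.9 ± 18.4 CPM with vehicle (SD, n = 4 each). Endothelial markers summed to 0 to 0.46 CPM with CsA and 0.212 to 0.452 CPM with vehicle, with *PECAM1*, *KDR* and *EMCN* at 0. The 6 stromal markers summed to 108.0 to 126.7 CPM with CsA and 359.1 to 402.7 CPM with vehicle, with *COL1A2* at 0, and the 6 immune markers to 17.3 to 24.5 CPM with CsA and 13.1 to 14.9 CPM with vehicle, with *PTPRC* and *CD3E* at 0. The part of these markers in the results that follow was not tested.

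With CsA, both partner receptors fell, *EGFR* did not pass the test, 2 of 5 ligands rose, and the feedback transcripts moved in opposite directions. Of the 9 members that passed the low-count filter, 3 were higher, 3 were lower and 3 did not pass the call rule, an adjusted p under 0.05 from edgeR's quasi-likelihood test with Benjamini-Hochberg adjustment over all 12855 genes tested. That rule called 66.9% of all genes tested, 33.3% higher and 33.5% lower, so 6 of 9 is close to the background and is no result about these genes as a set. The CsA and vehicle libraries did not overlap in 6 of the 9, against 57.9% of all genes tested. The median log2 fold change was -0.01 over the 9 members and -0.00222 over all genes tested. *ERBB3* and *PHLDA1* were called with a log2 change of 1 or more in size, which 12.2% of all genes tested were. In RNA from a whole culture, fewer cells of a kind and less RNA per cell cannot be told apart.

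**Figure D1:**
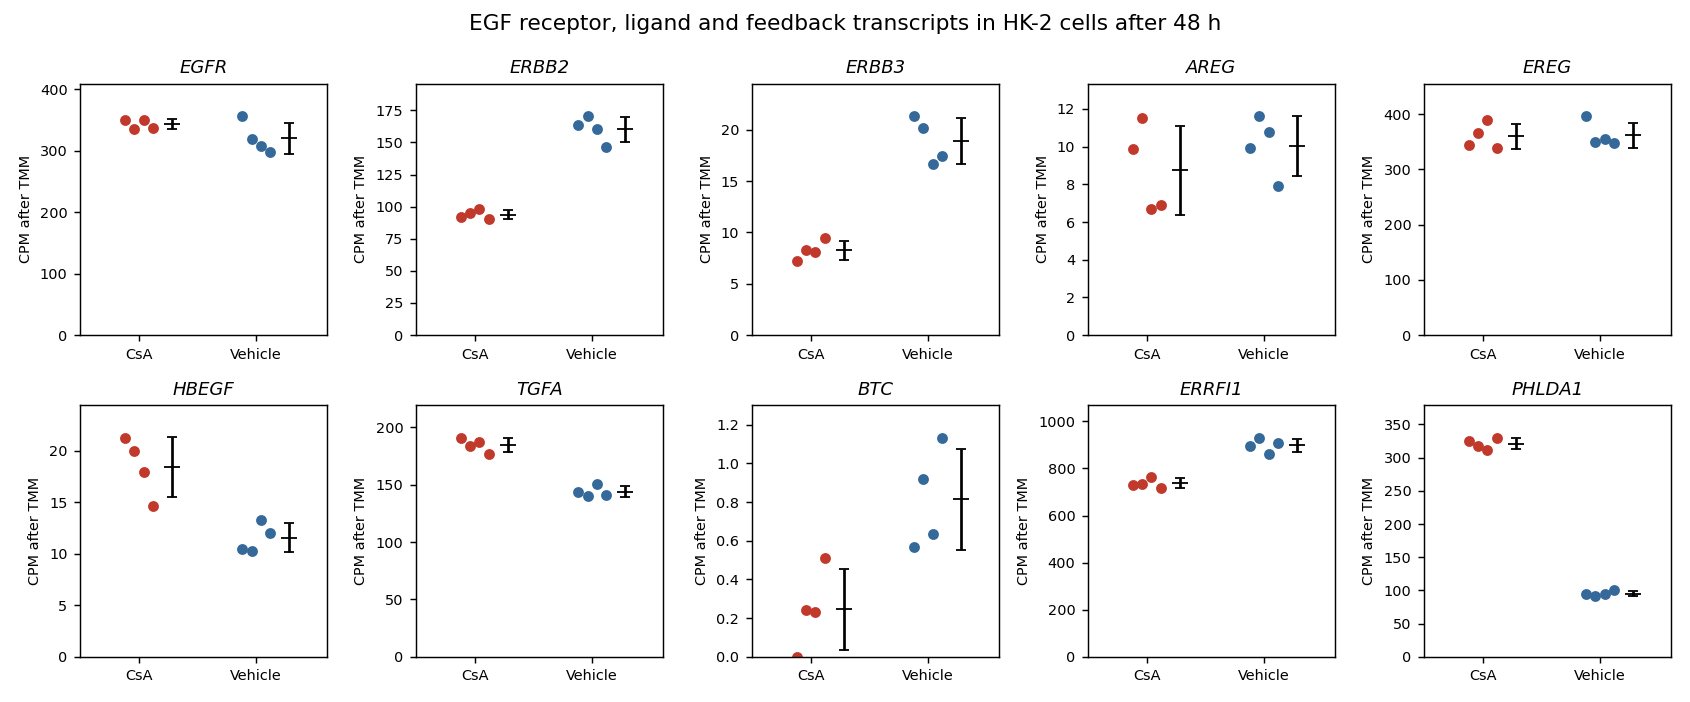
Level of each of the 10 members in CPM after TMM (y axis, from 0) in the 4 CsA and 4 vehicle libraries (points), with mean and SD (bars). The CsA points lie below all vehicle points for *ERBB2*, *ERBB3* and *ERRFI1*, and above them for *HBEGF*, *TGFA* and *PHLDA1*.

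*EGFR*, the receptor that binds EGF and all 5 ligands listed here, was measured at 349.7, 334.9, 350.1 and 336.3 CPM in the CsA libraries, against 355.6, 318.9, 307.2 and 298.1 CPM in the vehicle libraries. The groups overlapped because vehicle library 1 was the highest of all 8. The log2 fold change was 0.10 ± 0.06 (SE), with an adjusted p of 0.14 (edgeR). Without vehicle library 1 it was 0.15 with an adjusted p of 0.0161, which would be a call, and over 14 alternatives the adjusted p ran from 0.0161 to 0.794.

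*ERBB2*, the partner receptor, stood at 91.9, 94.8, 97.8 and 90.5 CPM with CsA, against 163.4, 170.2, 160.3 and 146.5 CPM with vehicle. No CsA library reached the lowest vehicle library. The log2 fold change was -0.77 ± 0.06 (SE), which is 0.585 times the vehicle level (edgeR adjusted p = 4.83e-16), and it ran from -0.81 to -0.74 when any single library was left out.

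*ERBB3*, the receptor with a weak kinase that binds neuregulins, stood at 7.20, 8.30, 8.05 and 9.46 CPM with CsA, against 21.3, 20.2, 16.7 and 17.4 CPM with vehicle. These levels rest on 141 counts over the 4 CsA libraries and 416 over the 4 vehicle libraries. The groups stood well apart, with a log2 fold change of -1.22 ± 0.14 (SE; edgeR adjusted p = 6.86e-11), or 0.429 times the vehicle level.

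Set against *EGFR* counts within the same library, which removes library size from the comparison, the partner receptors stood apart in the same direction. *ERBB2* counts were 26.3, 28.3, 27.9 and 26.9% of *EGFR* counts with CsA, against 46.0, 53.4, 52.2 and 49.2% with vehicle, a log2 difference of -0.87. *ERBB3* counts were 2.06, 2.48, 2.30 and 2.81% of *EGFR* counts with CsA, against 5.99, 6.35, 5.44 and 5.83% with vehicle, a log2 difference of -1.30. The percentages describe read counts and not molecules, since transcript length differs between the genes. Both ratios were lower in 4 of 4 CsA libraries than in any vehicle library. An exact two-sided permutation test gave p = 0.0286 for each, the smallest p that 4 against 4 libraries allow. Adjusted over the 3 ratios compared, that permutation p stayed at 0.0286. The 3 ratios set the 3 members called lower against *EGFR* in the same counts, so they are no separate support for those calls.

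**Figure D2:**
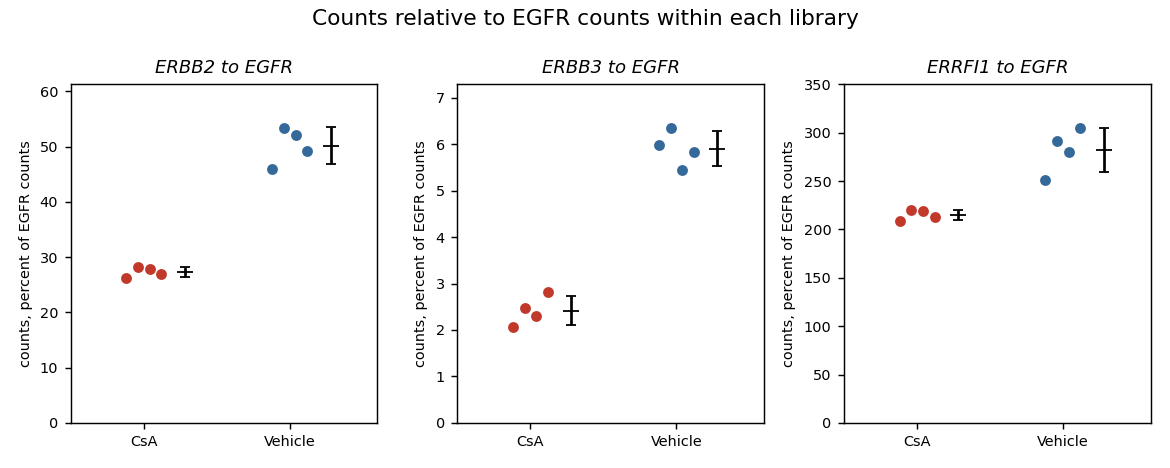
Counts of *ERBB2*, *ERBB3* and *ERRFI1* as a percent of *EGFR* counts in the same library (y axis, from 0) for 4 CsA and 4 vehicle libraries (points), with mean and SD (bars). In each panel every CsA library lies below every vehicle library.

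Among the ligands, *HBEGF*, which is shed from the membrane and also binds heparan sulphate, stood at 21.2, 20.0, 17.9 and 14.6 CPM with CsA, against 10.5, 10.3, 13.3 and 12.0 CPM with vehicle. The lowest CsA library was close to the highest vehicle library but did not cross it. The log2 fold change was 0.70 ± 0.14 (SE; edgeR adjusted p = 9.31e-06), a fold of 1.63, from 320 counts with CsA and 246 with vehicle.

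*TGFA*, a ligand of EGFR, stood at 190.5, 183.9, 187.0 and 176.4 CPM with CsA, against 143.2, 139.9, 151.0 and 141.4 CPM with vehicle. The groups were clearly apart, and the spread within each was small. The test gave a log2 fold change of 0.36 ± 0.06 (SE; edgeR adjusted p = 4.53e-07), a fold of 1.28.

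*EREG*, which encodes epiregulin, stood at 344.7, 366.1, 389.9 and 338.3 CPM with CsA, against 396.0, 349.3, 355.7 and 347.7 CPM with vehicle. The groups overlapped over most of their range, and the highest library of all was vehicle library 1. Its log2 fold change was -0.01 ± 0.06 (SE; edgeR adjusted p = 0.872) and took either sign across the alternatives, from -0.09 to 0.04.

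*AREG*, which encodes amphiregulin, stood at 9.87, 11.5, 6.67 and 6.90 CPM with CsA, against 9.93, 11.6, 10.8 and 7.90 CPM with vehicle. The groups overlapped, with 2 CsA libraries below all vehicle libraries. For *AREG* the log2 fold change was -0.21 ± 0.17 (SE; edgeR adjusted p = 0.284), from 151 and 219 counts. In hg19 the gene has a near-identical second copy, and how reads shared by the copies were counted is not known here, so the level is uncertain.

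*BTC*, which encodes betacellulin, had 0, 1, 1 and 2 counts in the CsA libraries, against 4, 5, 3 and 5 counts in the vehicle libraries. It did not pass the low-count filter and was not tested in the main comparison. Fitted without that filter, the log2 fold change was -1.65 ± 0.75 (SE; edgeR adjusted p = 0.0544). In CPM the groups did not overlap, but the values rest on 4 counts with CsA and 17 with vehicle.

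The feedback transcripts diverged. *ERRFI1*, the inhibitor of active EGFR, stood at 731.8, 735.7, 765.6 and 716.5 CPM with CsA, against 894.1, 928.6, 860.9 and 909.3 CPM with vehicle. All CsA libraries were lower than all vehicle libraries, with a log2 fold change of -0.28 ± 0.06 (SE; edgeR adjusted p = 1.04e-05), or 0.821 times the vehicle level. Set against *EGFR* counts within each library, *ERRFI1* was at 209.3, 219.7, 218.7 and 213.1% with CsA, against 251.5, 291.2, 280.2 and 305.1% with vehicle. That log2 difference of -0.39 again had the smallest exact permutation p, 0.0286.

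*PHLDA1*, a pleckstrin homology-like protein whose transcript is induced downstream of ERK, stood at 325.8, 317.5, 310.8 and 329.3 CPM with CsA, against 94.2, 90.9, 94.2 and 100.3 CPM with vehicle. The gap between the groups was many times the spread within either. The log2 fold change was 1.76 ± 0.06 (SE; edgeR adjusted p = 6.57e-33), a fold of 3.38, and *PHLDA1* ranked 45 by p-value among all genes tested.

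In the authors' deposited table the log2 fold changes were 0.11 for *EGFR*, -0.76 for *ERBB2*, -1.15 for *ERBB3*, 0.68 for *HBEGF*, 0.37 for *TGFA*, -0.27 for *ERRFI1* and 1.76 for *PHLDA1*. In the authors' deposited table *EGFR*, *AREG*, *EREG* and *BTC* had adjusted p-values of 0.112, 0.48, 0.99 and 0.11, in that order.

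**Figure D3:**
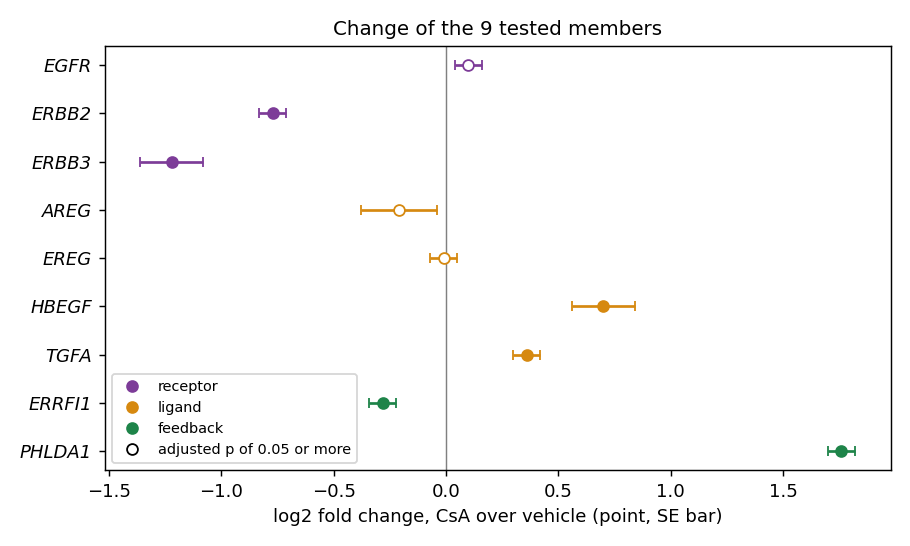
log2 fold change, CsA over vehicle (x axis), of the 9 tested members with SE bars, coloured by role. Filled points passed an adjusted p of 0.05 and open points did not; *PHLDA1* at 1.76 and *ERBB3* at -1.22 lie farthest from 0.

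Of 7 further receptor and ligand genes of the family, 3 were tested, of which 2 were higher and 1 did not pass. This gene list and those that follow were chosen with earlier results of these data known. Their counts stand against 33.3% higher and 33.5% lower among all genes tested. *NRG3*, a neuregulin that binds ERBB4, was at 10.7 ± 1.85 CPM with CsA and 4.57 ± 0.828 CPM with vehicle (SD, n = 4 each; log2 fold change 1.23 ± 0.19 SE, edgeR adjusted p = 6.54e-08). *NRG1*, a neuregulin ligand of ERBB3 and ERBB4, was at 41.3 ± 6.20 CPM with CsA and 33.2 ± 1.82 CPM with vehicle (log2 fold change 0.31 ± 0.09 SE, adjusted p = 0.0029), with overlapping libraries. *EGF* itself did not pass, at 4.53 ± 0.355 CPM with CsA and 5.88 ± 1.47 CPM with vehicle (log2 fold change -0.40 ± 0.21 SE, adjusted p = 0.0918). *ERBB4*, *EPGN*, *NRG2* and *NRG4* were too low to test: *ERBB4* had 1 count with CsA and 0 with vehicle, and *EPGN* 0 with CsA and 1 with vehicle.

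Of 8 genes that shed ligands or steer shedding, 7 were tested, and 3 were higher, 3 lower and 1 not passed. The sheddase *ADAM17*, the main protease for *TGFA*, *AREG*, *EREG* and *HBEGF*, was at 217.5 ± 15.9 CPM with CsA and 174.5 ± 13.3 CPM with vehicle (SD, n = 4 each), a log2 fold change of 0.31 ± 0.06 (SE; edgeR adjusted p = 1.52e-05). *ADAM10*, the main protease for *BTC* and *EGF*, was at 357.4 ± 9.26 CPM with CsA and 369.0 ± 23.0 CPM with vehicle, a log2 fold change of -0.05 that did not pass (adjusted p = 0.469), although upper-quartile scaling gave -0.13 with an adjusted p of 0.0463. *ADAM9* rose by a log2 fold change of 0.66 ± 0.08 (SE) and *RHBDF1*, a rhomboid-like partner of ADAM17, by 0.53 ± 0.09, while *ADAM15* fell by 0.37 on the log2 scale. *ADAM12* and *RHBDF2*, named here after their values were seen, were the other two that fell.

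Among 12 receptor adaptors, 6 were higher, 3 lower and 3 not passed, with a median log2 fold change of 0.171. The scaffold *GAB2* was at 57.5 ± 3.34 CPM with CsA and 16.9 ± 2.07 CPM with vehicle (log2 fold change 1.75 ± 0.10 SE, edgeR adjusted p = 1.58e-23). *GRB7*, an adaptor that binds ERBB2 and lies near it on chromosome 17, was at 35.1 ± 6.37 CPM with CsA and 73.6 ± 4.61 CPM with vehicle (log2 fold change -1.06 ± 0.09 SE, adjusted p = 6.28e-16). *PLCG1*, a phospholipase recruited to EGFR, rose by a log2 fold change of 0.57 ± 0.06 (SE). The adaptors that link receptors to RAS, *GRB2* and *SHC1*, had log2 fold changes of 0.00 and 0.01 and did not pass; their names, like those of *SOS1* and *SOS2*, which fell, were picked after their values were seen. The *SOS2* call was lost under DESeq2 (adjusted p = 0.0903) and in edgeR without CsA library 1 (0.158), vehicle library 1 (0.0625) or vehicle library 3 (0.0521).

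The list of receptor turnover and restraint, 19 tested of 20, had 12 higher, 4 lower and 3 not passed, with a median of 0.39. *EPS8*, a substrate of EGFR that acts on actin and RAC, had the smallest p-value of the list, at 102.7 ± 3.53 CPM with CsA and 39.3 ± 3.24 CPM with vehicle (log2 fold change 1.40 ± 0.07 SE, edgeR adjusted p = 5.98e-24). *LRIG2* and *SH3KBP1*, which links CBL to receptor endocytosis, had log2 fold changes of 0.90 ± 0.08 and 0.91 ± 0.09 (SE). *CBL*, the ubiquitin ligase that sends EGFR to degradation, was at 76.9 ± 3.16 CPM with CsA and 53.8 ± 1.85 CPM with vehicle (0.52 ± 0.07 SE, adjusted p = 8.41e-09). *LRIG1*, which restrains ERBB receptors, fell to 48.4 ± 2.91 CPM with CsA, against 64.7 ± 1.35 CPM with vehicle (log2 fold change -0.42 ± 0.08 SE, adjusted p = 3.27e-06). The remaining 3 that fell, named after their values were seen, were *SOCS3*, *SOCS4* and *SOCS5*, the call of *SOCS5* being lost under DESeq2 (adjusted p = 0.0794) and in edgeR without vehicle library 1 (0.0697).

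In the RAS-ERK core 9 of 13 rose and 4 did not pass, with a median of 0.347. *KSR1*, a scaffold for RAF and MEK, had a log2 fold change of 0.85 ± 0.11 (SE), *MAP2K2* of 0.50 ± 0.07 and *BRAF* of 1.09 ± 0.16. In the PI3K-AKT core 3 of 11 rose and 3 fell, with a median of -0.0148. *PIK3R3*, a regulatory subunit of PI3K, was at 3.20 ± 0.871 CPM with CsA and 10.6 ± 1.42 CPM with vehicle (log2 fold change -1.70 ± 0.20 SE, edgeR adjusted p = 1.51e-10), and *AKT1* and *PIK3R1* fell by 0.44 and 0.58 on the log2 scale.

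Transcripts that ERK signalling is known to raise, 14 tested of 16, had 12 higher and 2 lower, with a median log2 fold change of 1.11. Of all genes tested, 33.3% were higher and 33.5% lower, with a median of -0.00222. Since the list was written with earlier results of these data known, it is no independent measure of ERK signalling. *DUSP6*, a phosphatase that inactivates ERK, was at 69.9 ± 2.23 CPM with CsA and 30.1 ± 3.25 CPM with vehicle (log2 fold change 1.22 ± 0.08 SE, edgeR adjusted p = 1.84e-19), and *DUSP5* had a log2 fold change of 1.81 ± 0.06 (SE). *EGR1*, an early-response transcription factor, fell, at 7.07 ± 1.70 CPM with CsA and 42.3 ± 3.59 CPM with vehicle (log2 fold change -2.59 ± 0.13 SE, adjusted p = 2.9e-25). The other that fell was *EPHA2*, by 0.17 on the log2 scale, named after its value was seen, a call lost in edgeR without CsA library 3 (adjusted p = 0.0979) or vehicle library 3 (0.0556), and *DUSP4* and *FOS* were too low to test. No list was given a test as a set.

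**Figure D4:**
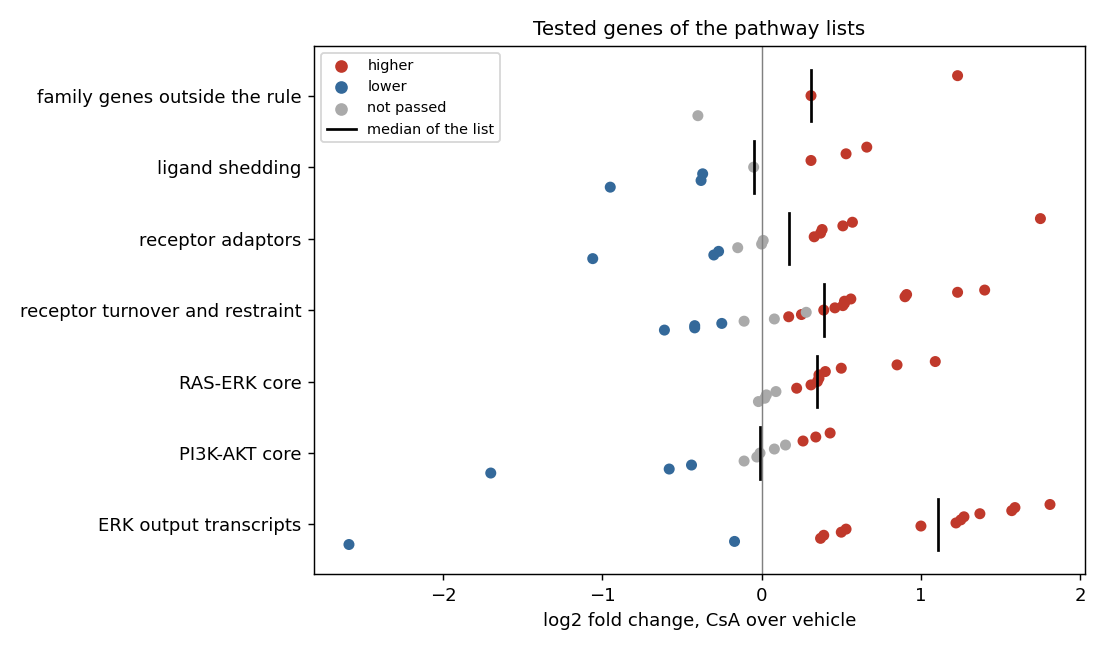
log2 fold change, CsA over vehicle (x axis), of each tested gene (points) in 7 pathway lists, coloured by call, with the median of each list (black bar). The list of ERK output transcripts has the highest median, at 1.11, and *EGR1* at -2.59 is its lowest point.

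The genes with profiles most like *EGFR* over the 8 libraries, by root mean square difference of centred log2 CPM among 10082 genes, were *LCLAT1* and *MBD5* at 0.0364 and *ESRP2* at 0.0381. Those most like *HBEGF*, which had the largest called change of the 5 ligands among the members, were *EXOSC5* at 0.0976, *SMNDC1* at 0.101 and *MRPL21* at 0.107. Their log2 fold changes were 0.59, 0.69 and 0.70, against 0.70 for *HBEGF*, a closeness that follows from how they were picked.

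The miRNAs listed as reported regulators of *EGFR*, *ERBB2*, *ERBB3* or *ERRFI1* numbered 20. The list was written from general knowledge and is not evidence of targeting in these cells. Of the 19 that were tested, 3 were higher, 1 was lower and 15 did not pass, against 4.89% higher and 6.38% lower among the 470 miRNAs tested. The 4 that passed, and miR-27b-3p, which shares a seed with one of them, are shown as RefSeq mature sequences (GRCh38.p14), with the seed, bases 2 to 8, in capitals.
miR-7-5p: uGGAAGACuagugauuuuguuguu
miR-27a-3p: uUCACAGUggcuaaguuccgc
miR-27b-3p: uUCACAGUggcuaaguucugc
miR-133a-3p: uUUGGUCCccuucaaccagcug
miR-148a-3p: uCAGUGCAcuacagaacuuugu

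miR-7-5p, listed for *EGFR*, was at 2317, 2370, 2638 and 2999 CPM with CsA, against 4882, 5332, 5737 and 4992 CPM with vehicle. The groups stood far apart, with a log2 fold change of -1.02 ± 0.11 (SE; edgeR adjusted p = 9.81e-06). miR-148a-3p, listed for *ERBB3*, was at 1753, 1960, 2656 and 3096 CPM with CsA, against 1334, 1530, 1519 and 1522 CPM with vehicle, a log2 fold change of 0.68 ± 0.15 (SE; adjusted p = 0.00745). The CsA libraries were spread more widely than the vehicle libraries, but did not overlap them.

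miR-27a-3p, listed for *EGFR*, was at 2779, 2674, 3055 and 2916 CPM with CsA, against 1969, 2159, 2051 and 2502 CPM with vehicle, a log2 fold change of 0.40 ± 0.11 (SE; edgeR adjusted p = 0.0235). The call was lost without vehicle library 1 (adjusted p = 0.053) or vehicle library 3 (0.0743), and over 14 alternatives the adjusted p ran from 0.00294 to 0.0743. miR-27b-3p, with the same seed, was at 4370 ± 456.8 CPM with CsA and 4731 ± 499.0 CPM with vehicle (SD, n = 4 each) and did not pass (log2 fold change -0.11 ± 0.11 SE, adjusted p = 0.564). miR-133a-3p, listed for *EGFR*, was at 66.8, 75.6, 59.9 and 57.4 CPM with CsA, against 40.7, 54.4, 43.0 and 43.1 CPM with vehicle (log2 fold change 0.52 ± 0.14 SE, adjusted p = 0.0201). Its call too was lost without CsA library 2 (0.0556), vehicle library 1 (0.053) or vehicle library 3 (0.0595), and over 14 alternatives its adjusted p ran from 0.00103 to 0.0595.

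Among those that did not pass were miR-22-3p (log2 fold change 0.30 ± 0.10 SE, edgeR adjusted p = 0.0637) and miR-143-3p (-0.42 ± 0.14, adjusted p = 0.0634), both listed for *ERBB3*. Each passed in a part of the alternatives, with adjusted p-values from 0.0253 to 0.158 for miR-22-3p and from 0.00986 to 0.166 for miR-143-3p. The CsA and vehicle libraries did not overlap for either of them, nor for miR-146b-5p, listed for *EGFR*, so 7 of the 19 tested did not overlap, against 16.2% of all miRNAs tested. miR-205-5p, also listed for *ERBB3*, was at 7989 ± 788.3 CPM with CsA and 9606 ± 951.4 CPM with vehicle (SD, n = 4 each) and did not pass (adjusted p = 0.138). The *ERBB2* miRNAs miR-125a-5p, miR-125b-5p and miR-331-3p had log2 fold changes of -0.17, 0.26 and -0.26, and the 4 miRNAs listed for *ERRFI1* had log2 fold changes between -0.21 and 0.05; these 7 did not pass.

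**Figure D5:**
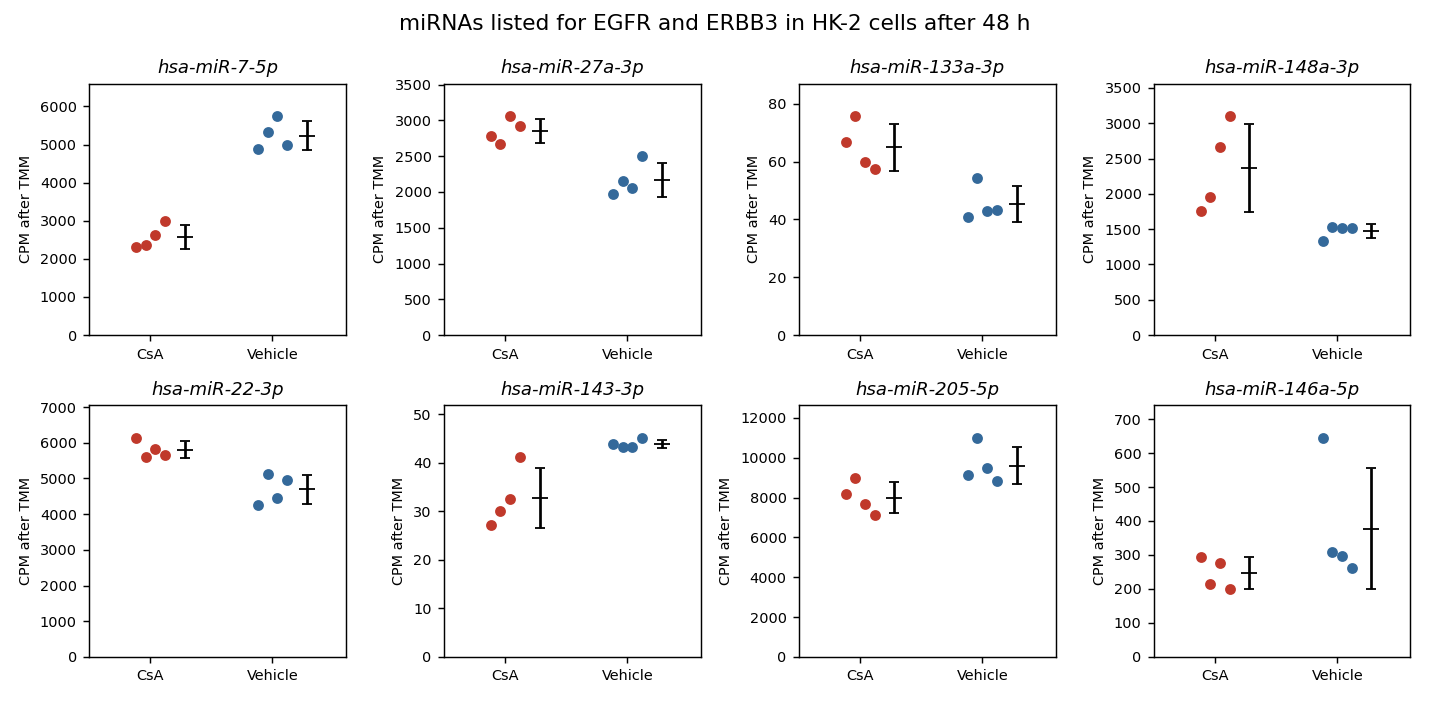
Level in CPM after TMM (y axis, from 0) of 8 miRNAs listed for *EGFR* or *ERBB3* in 4 CsA and 4 vehicle libraries (points), with mean and SD (bars). All CsA libraries lie below the vehicle libraries for miR-7-5p and miR-143-3p, and above them for miR-27a-3p, miR-133a-3p, miR-148a-3p and miR-22-3p.

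Argonaute clusters on the members were sparse. Per the authors' lists, which pool the libraries of a treatment, the AGO2 list for CsA placed 10 of 36812 clusters on members, the AGO2 list for vehicle 16 of 56985, and the list for all Argonautes 4 of 19306. With 1 list per treatment there is no test between them, and the lists differ in length. Counting both strands, *EGFR* held 4 clusters in the CsA list, 6 in the vehicle list and 1 in the list for all Argonautes, *ERBB2* held 1, 2 and 2, and *ERRFI1* held none. Some of those on *EGFR* and *ERBB2* lay opposite to the gene's strand, and so not on its transcript. The letters of 1 of the 4 CsA clusters on *EGFR*, at chr7:55214757-55214776 (hg19) with a score of 695, resemble bacterial ribosomal RNA and are not shown; its origin was not tested, and without it *EGFR* held 3 and all members 9. Introns held 8 of the 10 clusters with CsA and 11 of the 16 with vehicle, and introns held 80.1% of all gene-annotated clusters in the CsA list and 79.8% in the vehicle list. On the gene's strand lay 7 of 10 with CsA and 8 of 16 with vehicle, against 56.1% and 54.9% of all clusters with a known gene strand.

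No cluster annotated to a member was shared by the AGO2 lists, while 48.3% of all CsA clusters overlapped a vehicle cluster and 31.1% of all vehicle clusters overlapped a CsA cluster. That absence depends on the annotation. An overlapping pair inside a *TGFA* intron was annotated to *TGFA-IT1*, is described at the end and is not counted here. The single cluster annotated to a 3' UTR was at *ERBB3*, in the list for all Argonautes, and no AGO2 cluster fell on *ERBB3*. It lay on the minus strand. The strand of *ERBB3* was not looked up, so the cluster is not shown to lie on the *ERBB3* transcript. At *AREG* the vehicle list had 4 exon clusters with 2 distinct sequences, each placed at 2 positions of chromosome 4, which bears on the second copy described above. They are shown with the exon cluster on *EGFR*, in lower case since nothing in them is marked, at hg19 positions on the plus strand, the strand of both genes.
AREG chr4:75312417-75312433 and chr4:75482172-75482188: ctcgggagccgactatg
AREG chr4:75314931-75314950 and chr4:75484690-75484709: aaatatatagagcacctgga
EGFR chr7:55259421-55259438: tacttggaggaccgtcgc

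Matches to the seeds of the 122 miRNAs with a mean of at least 100 CPM were searched in the 26 AGO2 clusters on members, as the complement of bases 2 to 8 on the strand of the cluster. There were 5 miRNA and cluster pairs in 4 clusters, 3 of them on the strand of the gene and all in introns, shown here with the match in capitals (hg19).
HBEGF chr5:139721736-139721761, minus strand, CsA list: aatgtggattgACTGTGAggcatggc
EREG chr4:75246640-75246657, plus strand, CsA list: tagaagtagtTCAGTGGt
EGFR chr7:55088507-55088532, plus strand, vehicle list: gtcgttgggggaggggcAAGGCATag

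The *HBEGF* cluster matches miR-27a-3p and miR-27b-3p, whose ACTGTGA occurs in 0.535% of the clusters of the CsA list. The *EREG* cluster matches miR-181a-2-3p, which was at 340.2 ± 54.6 CPM with CsA and 474.2 ± 61.5 CPM with vehicle (SD, n = 4 each; log2 fold change -0.48 ± 0.14 SE, edgeR adjusted p = 0.0295), and whose match occurs in 0.551% of that list. That miRNA's call was lost without CsA library 1, 2 or 4 (adjusted p = 0.0927, 0.0699 and 0.0599) or vehicle library 1 or 3 (0.0967 and 0.0857). The *EGFR* cluster matches miR-532-5p, at 754.1 ± 101.4 CPM with CsA and 894.2 ± 39.1 CPM with vehicle (log2 fold change -0.25 ± 0.12 SE, adjusted p = 0.202), and its match occurs in 0.0895% of the vehicle list. A cluster opposite to the *EGFR* strand matched miR-10a-3p. These are letter matches and not tests of binding or of an effect on the transcripts.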

How the data were processed

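Polyadenylated RNA and small RNA of HK-2 cells were sequenced in 4 CsA and 4 vehicle libraries each, and Argonaute-bound RNA by PAR-CLIP. The deposited tables hold whole-number counts, unnormalized, for gene symbols and mature miRNAs. The submitters' processing notes name hg19, HTSeq, TopHat, Bowtie, cutadapt, DESeq2 and CASAVA 1.8.2. Other versions, the settings and any use of strand are not stated there, and without strand a gene and its antisense or overlapping partner share reads. A further table from the authors gives their comparison, with a mean signal, log2 fold changes and p-values, copied here only where named. Per the file headers, the PAR-CLIP lists hold positions, sequences and a score for every cluster; its scale and the caller are not stated, and scores only rank clusters within a list. The sequences of the list for all Argonautes were not used.

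The fit used edgeR 4.0.16 under R 4.3.3 (genes kept by filterByExpr, TMM, quasi-likelihood test with group as the only term, Benjamini-Hochberg over all 12855 genes or 470 miRNAs tested). Alternatives were relative log expression and upper-quartile scaling, DESeq2 1.42.0, limma voom 3.58.1, no filter, a replicate block and leaving out each library. Whether replicate numbers pair the libraries is not known. Deviations of same-numbered CsA and vehicle libraries from their group means correlated at -0.0746 to 0.0258 for mRNA and -0.0668 to 0.315 for miRNA. Differently numbered libraries gave -0.0761 to 0.13 for mRNA and -0.261 to 0.181 for miRNA. The highest miRNA value was from a same-numbered pair, so a pairing of the miRNA libraries is not excluded. With 12855 mRNA genes simulated, the test recovered 49 of 66 changes of log2 0.5 and 65 of 66 of log2 1. False calls were 1.66%. For 470 simulated miRNAs it recovered 12 of 39 and 37 of 37, with 5.5% false calls. The mRNA simulation changed only 66, 66 and 64 genes, at log2 0.5, 1 and 2, while 66.9% of genes were called in the real data. Its rates may therefore not carry over to these data.

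All members are named. From each other list the 3 smallest p-values, every further family gene, *ADAM17*, *ADAM10*, *LRIG1*, *CBL*, *DUSP6* and *EGR1* are named. Other names, including the markers given at 0 or under 1 CPM, *PAX8*, *DUSP4* and *FOS*, were chosen after their values were seen. The members and all lists were chosen with earlier results of these data known. Some list genes are not reported here by name, and counts and sums over lists include them.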

Additional observations from a re-analysis of the deposited data

Results flagged for a closer look

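In 4 of 64 groups of 4 libraries, 1 library lay far from the other 3 by Dixon's criterion, and chance flags about 1 in 20 groups. *EREG* was at 396.0 CPM in vehicle library 1, and the next highest vehicle library was at 355.7 CPM. miR-146a-5p, listed for *EGFR*, was at 643.7 CPM in vehicle library 1, with the next at 307.8 CPM. Its log2 fold change, CsA over vehicle, was -0.61 ± 0.23 (SE; edgeR adjusted p = 0.0902) and did not pass, with adjusted p-values from 0.000274 to 0.435 over 14 alternatives and a log2 fold change of -0.20 for miR-146a-5p without vehicle library 1. miR-148a-3p was at 1333.8 CPM in vehicle library 1, with the next lowest at 1518.9 CPM. miR-200a-3p, listed for *ERRFI1*, was at 4334.8 CPM in vehicle library 4, with the next at 3811.4 CPM. The deepest mRNA library was also vehicle library 1, at 7041604 counts, and the part of depth in these values was not tested.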

How the results depend on the processing

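Among the genes and miRNAs named with a call and the 3 ratios, none changed direction under the alternatives run; those for names outside the lists' rule, and the left-out *EGFR* cluster, were added after seeing the data. In each alternative 6 to 7 members were called. The 7th was *EGFR*, without vehicle library 1. With the replicate block 6 members, 8486 genes and 92 miRNAs were called, against 53 miRNAs without it, and the cause was not tested. Leaving out 1 library at a time gave 29 to 58 miRNAs, the lowest without vehicle library 3. With 1 library left out the log2 differences were -0.91 to -0.84 for *ERBB2* to *EGFR*, -1.37 to -1.22 for *ERBB3* to *EGFR* and -0.44 to -0.35 for *ERRFI1* to *EGFR*, where 3 against 4 libraries cannot give an exact permutation p under 0.0571. Within the block they were -0.87, -1.30 and -0.39, with the smallest possible sign-flip p, 0.125. Clusters scoring above their list's median numbered 1 with CsA, 6 with vehicle and 2 for all Argonautes. The 1 with CsA was the *EGFR* cluster of uncertain origin, without which the CsA list placed 9 clusters on members and none above the median. Seed matches numbered 1 for 8-base sites, 16 for 6-base sites and 2 for miRNAs of at least 1000 CPM, against 5. *EGF* passed with upper-quartile scaling (-0.48, edgeR adjusted p = 0.0433; range over alternatives 0.0433 to 0.346). Scaling moved the median of all genes to -0.0803 at most. The low counts limit the precision of *BTC*, *ERBB3* and *AREG*.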

Other observations

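*ERBB2* and its neighbours on chromosome 17, taken in RefSeq order, were examined after the values were seen. The adjoining *PGAP3*, *MIEN1* and *GRB7* had negative log2 fold changes like *ERBB2*, with *GRB7* at -1.06, while *IKZF3*, beyond *GRB7*, rose. A shared cause was not tested, and *TCAP*, *PNMT* and *ZPBP2* were too low to test. *PGAP3*, which acts on GPI anchors, was at 13.7 ± 2.13 CPM with CsA and 31.5 ± 4.49 CPM with vehicle (SD, n = 4 each; log2 fold change -1.20 ± 0.12 SE, edgeR adjusted p = 3.72e-13). *MIEN1* did not pass, at 19.6 ± 3.94 CPM with CsA and 22.8 ± 1.05 CPM with vehicle (-0.23 ± 0.12, adjusted p = 0.0837), but passed with upper-quartile scaling (0.0198) or without CsA library 2 (0.0288). *IKZF3*, an Ikaros-family transcription factor, was at 11.5 ± 2.36 CPM with CsA and 4.39 ± 0.882 CPM with vehicle (1.41 ± 0.19, adjusted p = 3.32e-09). Among neighbours of the ligands on chromosome 4, *CXCL2* had a log2 fold change of -0.29 (adjusted p = 0.011), *MTHFD2L* of 0.37 (0.143) and *RCHY1* of 0.39 (0.00263). The *CXCL2* call was lost under DESeq2 (0.0548) and in edgeR without vehicle library 3 (0.0534), and *MTHFD2L* passed without vehicle library 1 (0.0305).

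*TGFA-IT1*, a transcript inside a *TGFA* intron that is not a member, held overlapping AGO2 clusters in both lists, examined after the values were seen (hg19, minus strand, with a 7-base complement of the miR-7-5p seed in capitals). The match reaches past the first base of the shorter cluster, so it is complete only in the vehicle list, where it occurs in 31 of 56985 clusters.
CsA list chr2:70702952-70702972: tcttcccagggggagtcgggg
vehicle list chr2:70702952-70702975: tgGTCTTCCcagggggagtcgggg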
